A study of Mus musculus with 59 samples.

Results

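The Zic genes encode zinc finger transcription factors. Their members *Zic1*, *Zic2*, *Zic4* and *Zic5* were selected by symbol, which gave 4 of the 24391 genes listed in each library. No measured value was used as a criterion, though the members were chosen with earlier results of these data known. Zic proteins carry C2H2 zinc fingers related to those of the GLI proteins, the transcription factors of the Hedgehog pathway. The family is known for its part in neurulation, forebrain and cerebellar development and the neural crest, and loss of ZIC2 function is a cause of holoprosencephaly. *Zic2* is also expressed in ESCs and in the epiblast before neural tissue forms. PRC1, the Polycomb complex altered in these cells, places ubiquitin on histone H2A and is known for holding developmental regulators silent in ESCs.

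RNA-seq was performed on 59 libraries of 6 mouse ESC lines, each represented by control and mutant ESCs and EBs, which makes 4 groups a line. The question was which form of PRC1 acts on gene expression when ESCs differentiate into EBs. ESCs were grown on feeder fibroblasts with LIF and inhibitors of FGFR, MEK and GSK3, and EBs were the same cells after 2 days in suspension without LIF or inhibitors. All lines carry Cre-ERT2, a recombinase that enters the nucleus when 4-OHT is added.

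The *Pcgf1* line has 4 control ESC, 5 *Pcgf1*-KO ESC, 5 control EB and 5 *Pcgf1*-KO EB libraries. Its controls are ERT2-Cre Pcgf1f/f cells without 4-OHT and its mutants are Pcgf1delta/delta cells given 4-OHT. PCGF1 is the subunit that defines variant PRC1.1. The *Ring1A*-pm; *Ring1B*-cpm line, called the point-mutant line here, has 2 libraries in each of its 4 groups. Its controls carry Ring1apm/pm as well, and only the mutants are also Ring1bpm/pm. RING1A and RING1B are the enzymes that place the H2A ubiquitin. The other lines, with 2 libraries a group, are the *Ring1A/B* line, whose controls already lack Ring1a (Ring1a-/-; Ring1bf/f), and the *Pcgf2/4*, *Pcgf3/5* and *Pcgf6* lines. By design, mutants of the *Ring1A/B* line lose Ring1b as well, and those of the *Pcgf* lines lose the genes in their names, from floxed alleles. By the authors' account *Pcgf1* to *Pcgf5* were deleted 2 days ahead of EB formation, and Ring1b and *Pcgf6* at its start. In every line 4-OHT was given to the mutant groups only, so the effect of the agent and that of the mutation cannot be told apart. Nothing in the sources used here says that libraries of a group came from separate cultures, so the p-values may measure technical spread only. Levels are in TPM, in which expression is set per transcript length and scaled so that each library sums to 1000000. The number of reads behind a library is unknown, and 6039 to 9139 genes were listed at 0 in a library.

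The libraries were checked against their labels. *Pcgf1* was at 7.30 to 16.6 TPM in the 9 control libraries of the *Pcgf1* line and at 0.627 to 2.77 TPM in the 10 mutant libraries, with no overlap. In the point-mutant line the targeted transcripts remain in the mutants, with *Rnf2*, which encodes RING1B, at 54.5 to 64.6 TPM against 66.6 to 85.8 TPM in the controls, so their level checks nothing. In these 2 lines *Fgf5*, a gene of the formative epiblast, was at 0 to 0.703 TPM in 13 ESC libraries and at 2.91 to 68.5 TPM in 14 EB libraries, whereas *Klf4*, a gene of naive pluripotency, was at 262 to 1664 TPM and 3.54 to 122 TPM. Among the 32 libraries of the other 4 lines, 21 carry a table name whose condition is not that of the label. The tests below are therefore those of the *Pcgf1* and point-mutant lines, and the other lines are described after them.

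The 4 genes lie in 2 pairs. In mm9, the build the authors mapped to, *Zic1* is at chr9:91252896-91260648 on the minus strand and *Zic4* at chr9:91257251-91284186 on the plus strand. Their GENCODE gene models, introns included, share 3398 bases. Overlap of exons was not examined. The libraries are not stated to keep strand, so reads from any exon bases shared there could not be assigned to one gene. *Zic5* is at chr14:122856017-122864899 on the minus strand and *Zic2* at chr14:122874604-122879074 on the plus strand, with 9704 bases between them. Variant PRC1.1 contains KDM2B, which binds unmethylated CG dinucleotides, and the 250 bases before the start of *Zic1* and *Zic5* are shown for this reason, 5′ to 3′ on the strand of the gene, with every CG in capitals. RefSeq promoters (GRCm38.p6) were matched for 3 of the 4 members.
Zic1: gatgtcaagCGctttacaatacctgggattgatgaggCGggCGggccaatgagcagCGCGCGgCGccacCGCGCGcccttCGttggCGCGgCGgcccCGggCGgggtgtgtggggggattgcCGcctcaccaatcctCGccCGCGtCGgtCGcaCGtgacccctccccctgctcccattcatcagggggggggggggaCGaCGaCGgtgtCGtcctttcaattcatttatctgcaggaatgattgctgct
Zic5: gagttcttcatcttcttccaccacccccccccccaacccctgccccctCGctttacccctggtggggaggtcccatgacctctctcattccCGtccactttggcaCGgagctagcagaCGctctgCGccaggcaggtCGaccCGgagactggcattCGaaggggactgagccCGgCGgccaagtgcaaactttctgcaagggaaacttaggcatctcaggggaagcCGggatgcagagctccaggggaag
The *Zic1* stretch, chr9:91365769-91366018 on the minus strand of GRCm38.p6, holds 27 CG and is 66% G and C. It matches mm9 exactly once, at chr9:91260607-91260856, which spans the start of the *Zic1* gene model and lies inside that of *Zic4*. Of 32851 promoters of this length, 8.56% hold at least as many CG. The *Zic5* stretch, chr14:122465659-122465908 on the minus strand of GRCm38.p6, holds 11 CG, is 62.4% G and C, and matches mm9 at chr14:122864881-122865130. At least as many CG are held by 35.6% of promoters. The RefSeq *Zic4* promoter, at chr9:91368722-91368971 on the plus strand, holds 4 CG, and 62.2% of promoters hold at least as many. It matches mm9 at chr9:91263560-91263809, inside the GENCODE gene model of *Zic4*. Its count thus belongs to the RefSeq start and not to the start of that model. The median promoter holds 6 CG, with quartiles of 2 and 16, and 92.1% hold at least 1. CG reads the same on both strands. The counts describe the letters and do not show binding.

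The members differed in level. *Zic2* and *Zic5* were above 0 in all 59 libraries. *Zic1* was listed at 0 in 14 libraries and was under 1 TPM in 50, and *Zic4* was listed at 0 in 44 and was under 1 TPM in all 59. Both were above *Zic1* and *Zic4* in 58 of 59 libraries. *Zic2* was higher than *Zic5* in 59 of 59 libraries, by a ratio of TPM of 1.32 to 31.8 with a median of 2.95. In control EBs of the *Pcgf1* line the mean TPM of *Zic2* was above that of 96.2% of genes and the mean of *Zic5* above that of 89.7%. In control ESCs these shares were 75.5% and 70.1%.

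*Zic2* and *Zic5* rose from ESCs to EBs in control cells of the *Pcgf1* line. *Zic2* was at 15.8, 31.8, 35.4 and 24.7 TPM in control ESC replicates 1 to 4, and at 126, 263, 226, 131 and 133 TPM in control EB replicates 1 to 5. Every EB library was above every ESC library, which held for 10.1% of the 20594 genes tested. The change was 6.48-fold (95% interval 4.05 to 10.4, log2 difference 2.70 ± 0.32 SE, limma adjusted p = 7.8e-06), on the scale of log2(TPM + 0.1), which understates changes of low genes.

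*Zic5* was at 7.97, 24.05, 26.4 and 14.7 TPM in control ESCs and at 41.7, 144, 93.7, 45.9 and 51.7 TPM in control EBs. Here too the groups did not overlap, and replicates 2 and 3 were the highest at both stages for both genes. *Zic5* rose 4.02-fold (1.98 to 8.16, log2 difference 2.01 ± 0.49 SE, limma adjusted p = 0.00496). These are 2 of the 4 members, beside 11.5% of the 20594 genes tested that were called higher in control EBs. Within the 4 same-numbered pairs the log2 difference was 2.41 to 3.05 for *Zic2* and 1.63 to 2.57 for *Zic5*, higher in 4 of 4 pairs for both. The summed level of 13 fibroblast markers lay between 229 and 308 TPM in control ESCs and between 29.8 and 50.4 TPM in control EBs, and its part in these differences was not tested. In RNA from whole cultures, a change in the share of cells that express a gene and a change in RNA per cell cannot be told apart.

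**Figure D1:**
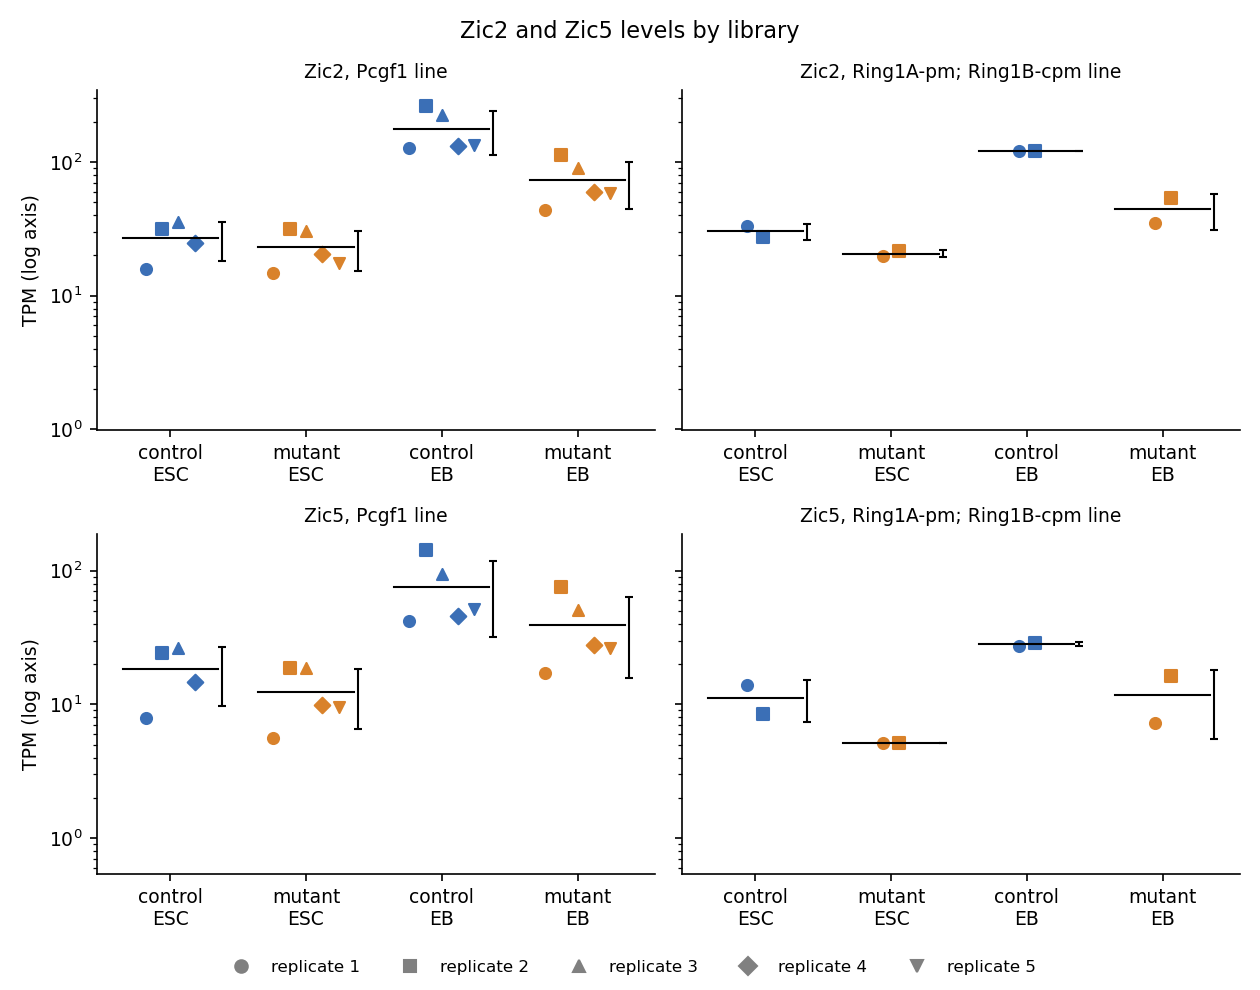
*Zic2* and *Zic5* in TPM on log axes in each library of the *Pcgf1* and *Ring1A*-pm; *Ring1B*-cpm lines, with points for libraries (symbols give the replicate number), lines for group means and bars for SD. In the *Pcgf1* line the 5 control EB libraries of *Zic2*, from 126 to 263 TPM, lie above the 5 *Pcgf1*-KO EB libraries, from 43.4 to 113 TPM.

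In EBs, *Zic2* was lower in *Pcgf1*-KO than in control cells. It was at 43.4, 113, 90.2, 59.5 and 58.4 TPM in *Pcgf1*-KO EB replicates 1 to 5, all below the lowest control EB library, which held for 1.63% of genes. The mean was 72.9 ± 28.02 TPM (SD, n = 5) against 176 ± 63.9 TPM (SD, n = 5) in controls. *Zic2* was thus 2.43-fold lower (fold 0.411, 95% interval 0.264 to 0.640, log2 difference -1.28 ± 0.30 SE, limma adjusted p = 0.0342). With *Zic2*, 1 of the 4 members was called lower, beside 0.874% of genes. The call was lost when any of 5 libraries was left out (control EB 2 or 3, or *Pcgf1*-KO EB 1, 4 or 5), with log2 differences of -1.23 to -1.12 and adjusted p of 0.0742 to 0.0992. It was also lost when only the EB groups were fitted (adjusted p = 0.0944).

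*Zic5* in *Pcgf1*-KO EBs was at 17.1, 75.8, 51.1, 27.6 and 26.3 TPM, and these values overlapped with those of control EBs. The log2 difference was -0.96 ± 0.46 SE (95% interval -1.92 to 0.01, limma adjusted p = 0.421). In the *Pcgf1* line same-numbered libraries deviated from their group means together, and the comparison was repeated with the number as a block. By the names in the file headers, the numbers nest in 3 library series, with replicate 1 in the first, 2 and 3 in the second and 4 and 5 in the last. The differences between 2 replicates of a series were hardly shared between groups (r of -0.11 to 0.10 across 13400 genes), and pairs of 1 series may not be separate. The within-pair log2 differences of *Zic2* were -1.54, -1.22, -1.32, -1.14 and -1.19 for replicates 1 to 5, and those of *Zic5* were -1.28, -0.92, -0.87, -0.73 and -0.97. Both genes were lower in 5 of 5 pairs. With the replicate block the *Zic2* difference was -1.28 ± 0.08 SE (limma adjusted p = 9.6e-07, over the 7 alternatives 1.4e-07 to 0.0944) and the *Zic5* difference was -0.96 ± 0.12 SE (adjusted p = 0.000242, over the alternatives 0.000146 to 0.517). Then 2 of 4 members were called lower, beside 5.58% of all genes under the block. With the library series as the block, an alternative added after the data were seen, the same 2 were called (adjusted p = 1.4e-07 and 0.000146), beside 6.49% of genes called lower.

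In ESCs the *Pcgf1*-KO and control levels of *Zic2* and *Zic5* overlapped. *Zic2* was at 14.7, 31.5, 30.7, 20.3 and 17.7 TPM in *Pcgf1*-KO ESC replicates 1 to 5. The log2 difference from control ESCs was -0.23 ± 0.32 SE, with a fold of 0.853 and a 95% interval of 0.534 to 1.36 (limma adjusted p = 0.973). *Zic5* was at 5.61, 18.6, 18.6, 9.83 and 9.60 TPM, with a log2 difference of -0.55 ± 0.49 SE and an interval of the fold of 0.338 to 1.39 (adjusted p = 0.879). By limma 0 of the 4 members were called in this comparison, and 0 had an unadjusted p under 0.05, beside 0.641% of genes called in either direction. Within the 4 pairs *Zic5* was lower in each *Pcgf1*-KO library, by -0.58 to -0.37 in log2, and with the block its difference was -0.46 ± 0.13 SE (adjusted p = 0.0592, over the alternatives 0.0519 to 0.895). For *Zic2* the pairs gave -0.28 to -0.01, and here too pairs of 1 library series may not be separate.

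Both genes still rose from ESCs to EBs without PCGF1. *Zic2* rose 3.12-fold in *Pcgf1*-KO cells (95% interval 2.01 to 4.86, limma adjusted p = 0.000747) and *Zic5* rose 3.03-fold (1.55 to 5.89, adjusted p = 0.0195). These are 2 of 4 members, beside 8.13% of genes called higher. The call of *Zic5* was lost without *Pcgf1*-KO ESC 1, *Pcgf1*-KO EB 2 or *Pcgf1*-KO EB 3 (adjusted p = 0.0568, 0.0598 and 0.0536). The difference between the *Pcgf1*-KO effect in EBs and that in ESCs was tested as an interaction. For *Zic2* it was -1.05 ± 0.44 SE in log2 (95% interval -1.98 to -0.12, limma adjusted p = 0.762), and with the replicate block -1.13 ± 0.12 SE (adjusted p = 0.00103, over its 6 alternatives 0.000481 to 0.737). Without the block 0 of 4 members were called, with 1 at an unadjusted p under 0.05, beside 0.00486% of genes called. With it *Zic2* alone was called, beside 0.782% of genes called lower, and with the library series as the block it was again the 1 called (-1.11 ± 0.13 SE, adjusted p = 0.000481), beside 1.21% of genes. The rise of *Zic2* was smaller in *Pcgf1*-KO than in control cells in 4 of 4 pairs, with differences of -1.43 to -0.86 in log2. Pairs of 1 library series may not be separate, so this count is a description only. For *Zic5* the interaction was -0.41 ± 0.67 SE (adjusted p = 0.997) and with the block -0.49 ± 0.18 SE (adjusted p = 0.199, over its alternatives 0.198 to 1.00).

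Markers of other cells were set beside *Zic2* and *Zic5* in *Pcgf1*-KO EBs. The fibroblast markers summed to 17.9 to 25.5 TPM in *Pcgf1*-KO EBs, with *Lum*, which encodes lumican, at 0 in all 5, against 29.8 to 50.4 TPM in control EBs. The 9 primitive endoderm markers summed to 12.2 to 31.4 TPM against 10.3 to 24.3 TPM, and 4 of 9 were called higher (6 with the block), beside 1.08% of all genes, or 4.83% with the block, with a median log2 difference of 1.56, where the median of all genes was -0.03. The part of these markers in the Zic differences was not tested.

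**Figure D2:**
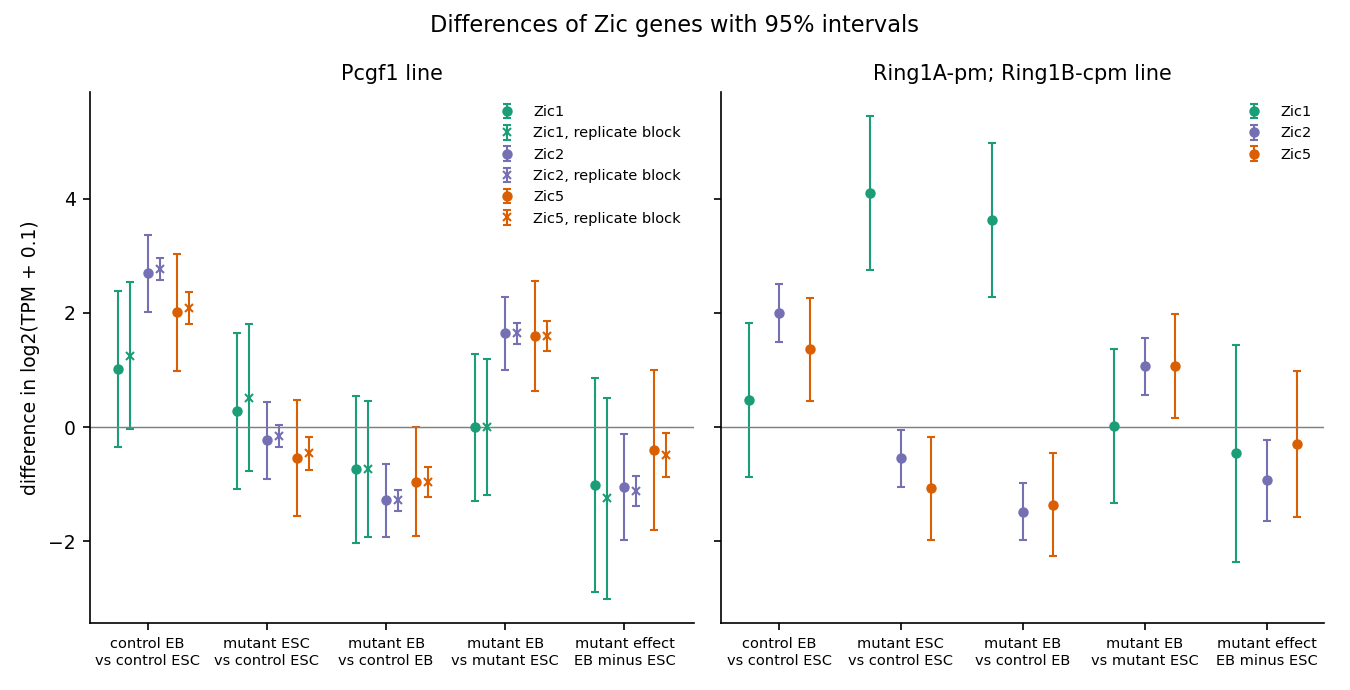
Differences in log2(TPM + 0.1) of *Zic1*, *Zic2* and *Zic5* with 95% intervals from limma in each comparison of the *Pcgf1* and *Ring1A*-pm; *Ring1B*-cpm lines, where crosses come from the block fit. In *Pcgf1*-KO against control EBs the *Zic5* difference of -0.96 is the same in both fits, and its interval excludes 0 only with the block.

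*Zic1* and *Zic4* stayed low in the *Pcgf1* line. *Zic1* was at 0.200, 0, 0 and 0.145 TPM in control ESCs and at 0, 0.414, 0.164, 0.135 and 0 TPM in *Pcgf1*-KO ESCs. In EBs it was at 0.516, 0.346, 0.677, 0 and 0.0909 TPM in control and at 0.255, 0.266, 0.142, 0 and 0 TPM in *Pcgf1*-KO libraries. These groups overlapped throughout, and the log2 difference between *Pcgf1*-KO and control EBs was -0.74 ± 0.61 SE (95% interval -2.03 to 0.55, limma adjusted p = 0.754). *Zic4* was listed at 0 in 17 of the 19 libraries, the exceptions being 0.0198 TPM in control ESC 4 and 0.0836 TPM in *Pcgf1*-KO EB 1.

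In the point-mutant line *Zic1* was higher in mutant than in control cells at both stages. It was at 0.148 and 0.0935 TPM in control ESC replicates 1 and 2 and at 2.82 and 4.73 TPM in mutant ESCs. In EBs it was at 0.0907 and 0.389 TPM in control and at 2.91 and 4.67 TPM in mutant libraries. The mutant libraries lay above all controls at each stage, as they did for 32.5% of genes in ESCs and 30.1% in EBs. The change was 17.1-fold in ESCs (95% interval 6.72 to 43.7, log2 difference 4.10 ± 0.58 SE, limma adjusted p = 0.0212) and 12.4-fold in EBs (4.87 to 31.7, log2 difference 3.64 ± 0.58 SE, adjusted p = 0.0207). These folds depend on the pseudocount. With a pseudocount of 1 they were 4.18 and 3.83, whereas the mean level was 3.78 against 0.121 TPM in ESCs and 3.79 against 0.240 TPM in EBs. Leaving out 1 library moved the log2 difference to between 3.74 and 4.46 in ESCs and between 2.96 and 4.31 in EBs, with the lowest EB value without control EB 1 and the highest without control EB 2. *Zic1* was the 1 member of 4 called higher in each comparison, beside 2.34% of the 20279 genes tested in ESCs and 3.76% in EBs. With 2 libraries a group these calls did not survive leaving out any 1 library (adjusted p of 0.113 to 0.174 in ESCs and 0.0579 to 0.113 in EBs), nor a fit of only the groups compared (0.0912 and 0.0663). Between the stages *Zic1* did not pass the test, with a log2 difference of 0.01 ± 0.58 SE between mutant EBs and mutant ESCs (95% interval -1.34 to 1.36).

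*Zic4* was listed at 0 in all 4 control libraries of this line, at 0 and 0.179 TPM in mutant ESCs and at 0.205 and 0.112 TPM in mutant EBs. The EB groups did not overlap, beside the same 30.1% of all genes. *Zic4* did not pass the test there (limma adjusted p = 0.194), and no fold is given against a group listed at 0.

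**Figure D3:**
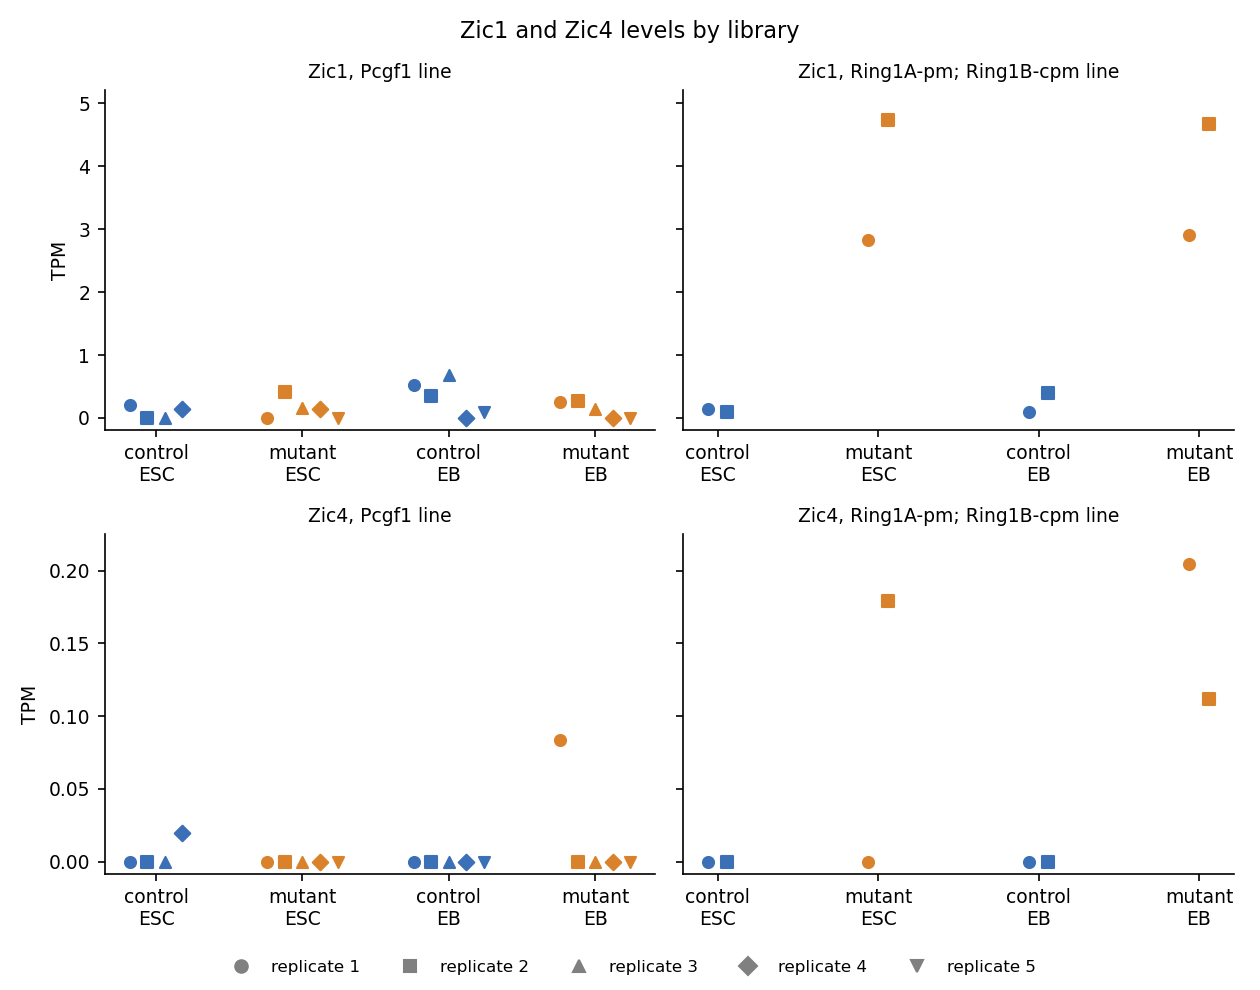
*Zic1* (top) and *Zic4* (bottom) in TPM on linear axes in each library of the *Pcgf1* and *Ring1A*-pm; *Ring1B*-cpm lines, with 1 point per library and symbols for the replicate number. The 4 mutant libraries of the point-mutant line hold 2.82 to 4.73 TPM of *Zic1*, whereas no library of the *Pcgf1* line is above 0.677 TPM.

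*Zic2* was lower in mutant than in control EBs of the point-mutant line. It was at 33.3 and 27.5 TPM in control ESCs, 19.9 and 21.5 TPM in mutant ESCs, 121 and 122 TPM in control EBs and 34.9 and 53.8 TPM in mutant EBs. It rose 3.99-fold from control ESCs to control EBs (95% interval 2.82 to 5.65, log2 difference 2.00 ± 0.21 SE, limma adjusted p = 0.00411), which makes 1 of 4 members, beside 2.73% of genes called higher. In mutant EBs it was 2.79-fold lower than in control EBs (log2 difference -1.48 ± 0.21 SE, adjusted p = 0.0161), again 1 of 4 members, beside 0.764% of genes called lower. The first call was lost without any 1 library (adjusted p of 0.052 to 0.0738), and the second without control EB 1 or 2 or mutant EB 1 (0.127, 0.0989 and 0.0643) or with only the EB groups in the fit (0.0553).

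*Zic5* was at 13.97 and 8.54 TPM in control ESCs, 5.16 and 5.11 TPM in mutant ESCs, 27.5 and 28.9 TPM in control EBs and 7.31 and 16.2 TPM in mutant EBs. The groups did not overlap in any of the 4 comparisons of a stage or a genotype, but no difference of *Zic5* passed the limma test. The log2 difference between mutant and control EBs was -1.36 ± 0.39 SE (95% interval -2.27 to -0.46, adjusted p = 0.0977), and that between control EBs and control ESCs was 1.36 ± 0.39 SE (0.45 to 2.26, adjusted p = 0.102). Values without overlap in the same direction were found for 23.3% of all genes in control EBs against ESCs, 12.9% in mutant ESCs, 13.6% in mutant EBs and 19.1% in mutant EBs against mutant ESCs. In mutant ESCs the log2 differences were -0.55 ± 0.21 SE for *Zic2* (adjusted p = 0.25) and -1.07 ± 0.39 SE for *Zic5* (adjusted p = 0.208). Between mutant EBs and mutant ESCs 0 of 4 members were called by limma, with 2 at an unadjusted p under 0.05, beside 0.133% of genes called. The log2 differences were 1.06 ± 0.21 SE for *Zic2* (95% interval 0.56 to 1.57) and 1.07 ± 0.39 SE for *Zic5* (0.16 to 1.98). The interaction was not called for any of the 4 members, with 1 (*Zic2*, -0.93 ± 0.30 SE, adjusted p = 0.694) at an unadjusted p under 0.05, beside 0.00986% of genes called.

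The median of all genes in the point-mutant line was 0.12 higher in log2 in mutant than in control ESCs and 0.10 higher in EBs, and median-of-ratios scaling set both to 0 without ending a call of a Zic gene. The fibroblast markers summed to 79.5 to 87.8 TPM in mutant and 43.8 to 47.0 TPM in control ESCs, and to 92.4 to 94.3 TPM in mutant and 35.02 to 39.8 TPM in control EBs. Primitive endoderm markers summed to 40.6 to 40.8 TPM against 12.1 to 14.5 TPM in ESCs and to 53.2 to 55.0 TPM against 23.0 to 29.3 TPM in EBs. The 6 trophoblast markers summed to 57.0 to 78.7 TPM against 37.0 to 50.9 TPM and to 65.0 to 87.4 TPM against 15.4 to 28.1 TPM. The 9 primitive streak and mesoderm markers summed to 27.6 to 29.8 TPM against 14.7 to 16.8 TPM in ESCs and to 29.8 to 35.9 TPM against 12.7 to 18.9 TPM in EBs. The part of these markers in the *Zic1* and *Zic2* differences was not tested.

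The 8 groups of these 2 lines were ordered by the median level of each gene. For *Zic2* the order rose from *Pcgf1*-KO ESCs (20.3 TPM) through mutant ESCs of the point-mutant line (20.7 TPM), control ESCs of the *Pcgf1* line (28.2 TPM), control ESCs of the point-mutant line (30.4 TPM), mutant EBs (44.3 TPM), *Pcgf1*-KO EBs (59.5 TPM) and control EBs of the point-mutant line (121 TPM) to control EBs of the *Pcgf1* line (133 TPM). Neighbours overlapped in their libraries except at the step from control ESCs to mutant EBs of the point-mutant line and at the 2 steps to and between the control EBs. Control ESCs of the *Pcgf1* line reached 35.4 TPM, above the lowest of these mutant EBs (34.9 TPM). *Zic5* had its lowest median in mutant ESCs of the point-mutant line (5.14 TPM) and its highest in control EBs of the *Pcgf1* line (51.7 TPM), and only these 2 groups did not overlap with their neighbour. For *Zic1* the single step without overlap was that from control EBs of the *Pcgf1* line (median 0.346 TPM) to mutant ESCs of the point-mutant line (3.78 TPM), and no neighbours were apart for *Zic4*.

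The *Pcgf2/4*, *Pcgf3/5*, *Pcgf6* and *Ring1A/B* lines were described library by library, since labels and table names differ there. *Fgf5* was at 0 to 0.816 TPM in the 16 libraries with ESC in the table name and at 7.53 to 46.3 TPM in the 16 with EB, whereas by label the ranges were 0 to 35.2 TPM and 0 to 46.3 TPM. *Zic2* was at 6.68 to 38.7 TPM in libraries named ESC and at 38.1 to 157 TPM in those named EB, and by label at 16.5 to 137 TPM and 6.68 to 157 TPM. *Klf4* was at 120 to 766 TPM in libraries named ESC and at 3.25 to 118 TPM in those named EB. By label it was at 3.25 to 766 TPM and 6.80 to 709 TPM. *Fgf5* and *Klf4* thus separated the stages by table name and not by label. The targeted genes, which bear on the control or mutant state, did not settle the labels in every line. *Rnf2* in the *Ring1A/B* line was at 62.9 to 80.5 TPM in mutants against 77.2 to 95.1 TPM in controls by label, and at 78.1 to 95.1 TPM against 62.9 to 78.2 TPM by table name, while *Pcgf6* in the *Pcgf6* line was at 34.7 to 46.3 TPM in mutants against 67.1 to 105 TPM in controls by table name and overlapped by label.

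In the *Ring1A/B* line the 2 libraries labelled control EB and named mutant ESC held *Zic1* at 5.35 and 6.54 TPM, and the 2 labelled and named mutant EB held 9.49 and 9.48 TPM. The libraries labelled and named control ESC held 0.0871 and 0.198 TPM, and those labelled mutant ESC and named control EB held 0.810 and 1.13 TPM. *Zic1* reached 1 TPM in 9 libraries of the series, 5 of this line and the 4 mutant libraries of the point-mutant line, and in the *Pcgf2/4*, *Pcgf3/5* and *Pcgf6* lines *Zic1* was at most 0.394 TPM. *Zic2* in the *Ring1A/B* line was at 38.1 and 38.7 TPM in libraries labelled control ESC, at 90.6 and 81.9 TPM in those labelled mutant ESC, at 21.4 and 20.3 TPM in those labelled control EB and at 38.1 and 40.2 TPM in those labelled mutant EB. *Zic5* in the same groups was at 15.5 and 16.4, 24.4 and 21.3, 6.46 and 5.58, and 12.9 and 13.2 TPM. By label, 15 of the 20 tests of a member in this line passed, beside 43.2%, 48.8%, 33.3%, 56.5% and 34.8% of all genes called in its 5 comparisons. As each of these tests rests on the label, no direction by condition is drawn from them. The fibroblast markers in the libraries labelled control EB summed to 437 to 465 TPM, against 41.4 to 181 TPM in the other 6, and their part was not tested.

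In the *Pcgf2/4* line *Zic2* was at 17.99 to 20.1 TPM in the 4 libraries named ESC and at 120 to 157 TPM in the 4 named EB, with *Zic5* at 1.45 to 4.27 TPM and 7.90 to 11.5 TPM. The *Pcgf3/5* line held *Zic2* at 16.5 to 17.7 TPM in libraries named ESC, at 90.9 and 83.2 TPM in those named control EB and at 146 and 138 TPM in those named mutant EB, with *Zic5* at 9.05 to 12.1, at 40.7 and 35.2, and at 59.9 and 46.7 TPM. In the *Pcgf6* line *Zic2* was at 20.6 and 21.3 TPM in libraries named control ESC, at 7.43 and 6.68 TPM in those named mutant ESC, at 91.9 and 108 TPM in those named control EB and at 110 and 118 TPM in those named mutant EB. *Zic5* in the same libraries was at 3.81 and 3.85, 1.89 and 1.03, 3.25 and 3.39, and 4.68 and 11.5 TPM. Among the 60 tests of a member by label in these 3 lines, 0 were called by limma and 2 had an unadjusted p under 0.05, beside 0.0601%, 0.0401% and 0.0301% of genes called in 3 comparisons of the *Pcgf3/5* line and 0% in the other 12. Each of these lines has labelled groups that hold libraries named ESC beside libraries named EB. The count therefore cannot decide whether a member changed with stage or state. With only the groups compared in the limma fit, *Zic2* and *Zic5* were called in EBs against ESCs labelled control of the *Pcgf3/5* line (adjusted p = 0.00433 and 0.00632). By table name each of these groups holds a control and a mutant library. The share of all genes called in that fit is not given here, so these calls are a description only.

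**Figure D4:**
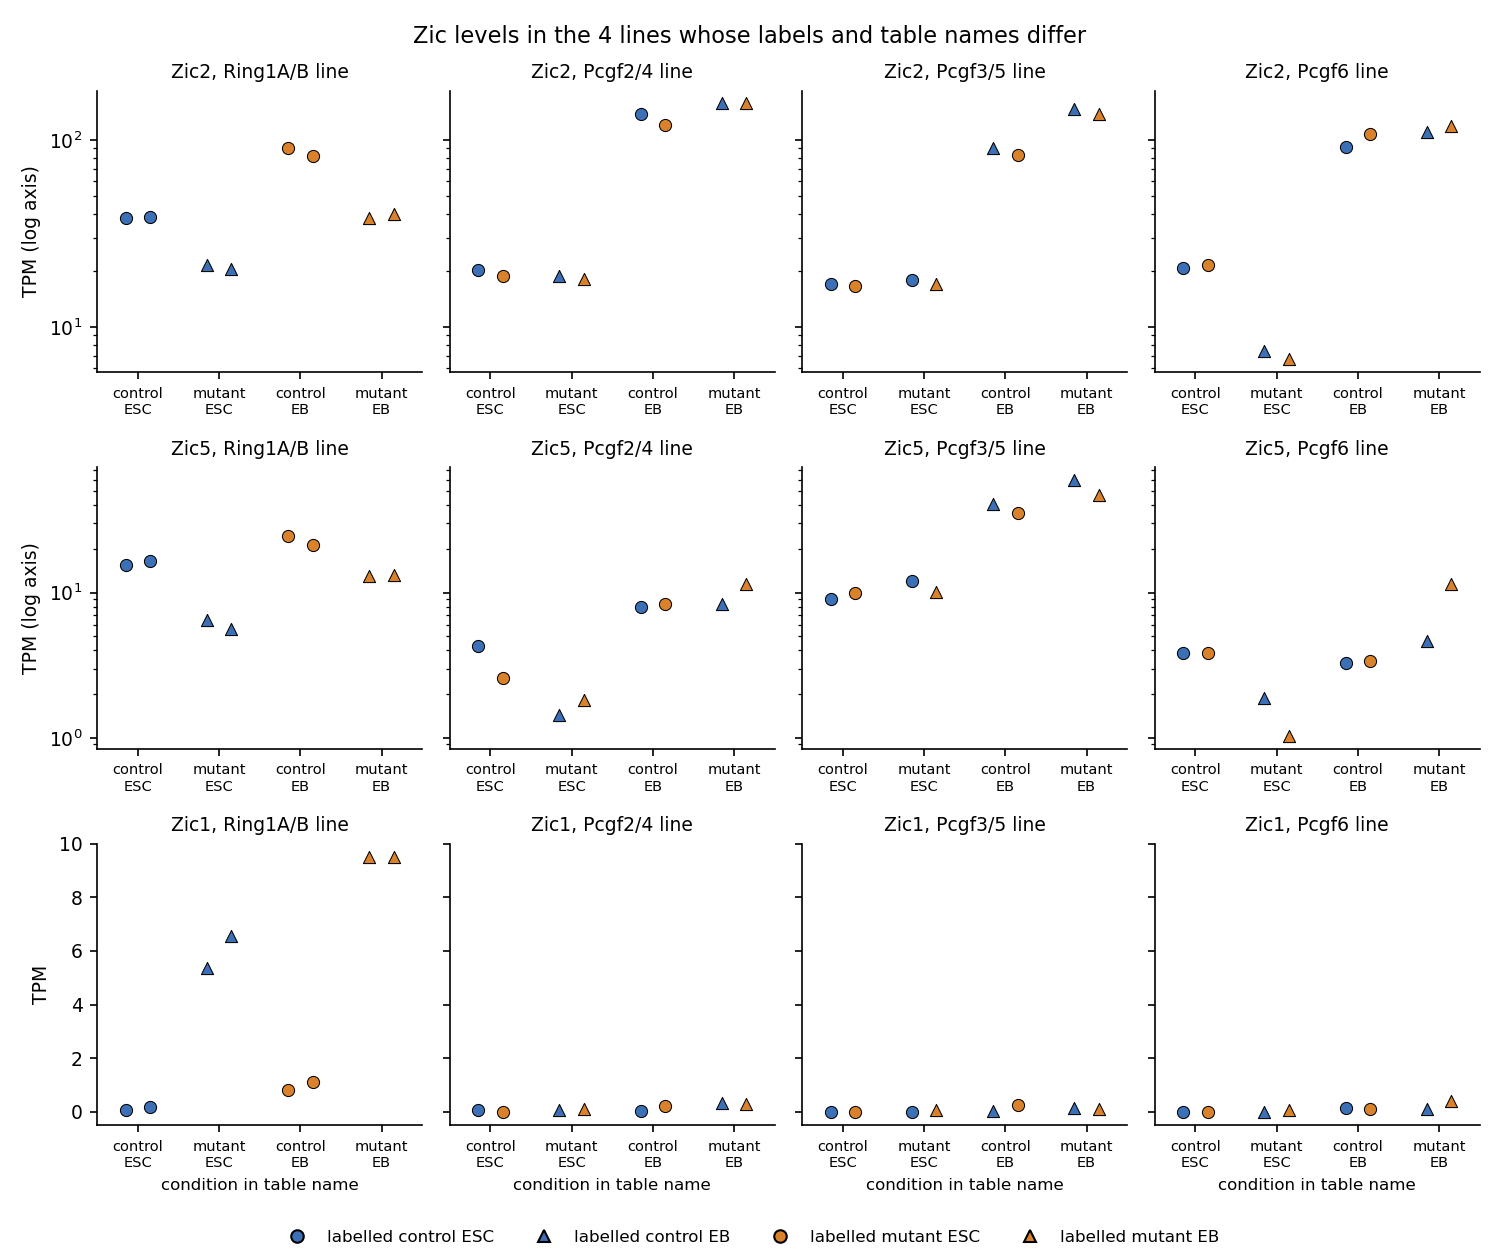
*Zic2* and *Zic5* (log axes) and *Zic1* (linear axis) in TPM in the 8 libraries of each of these 4 lines, placed by the condition in the table name, with colour and symbol for the label. *Zic1* is above 1 TPM in 5 libraries, all of the *Ring1A/B* line, and *Zic2* is higher in libraries named EB than in those named ESC in the *Pcgf2/4*, *Pcgf3/5* and *Pcgf6* lines.

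*Zic2* and *Zic5* varied together within the *Pcgf1* line and less so across lines. The Pearson r of their log2(TPM + 0.1) was 0.96 over the 19 libraries of the *Pcgf1* line, 0.62 over the other 40 and 0.67 over all 59. The ratio of *Zic2* to *Zic5* was 1.32 to 3.03 in the *Pcgf1* line, 1.47 to 2.95 in the *Pcgf3/5* line and 2.36 to 3.85 in the *Ring1A/B* line. It was 2.39 to 4.77 in the point-mutant line, 4.71 to 18.8 in the *Pcgf2/4* line and 3.94 to 31.8 in the *Pcgf6* line. For *Zic1* and *Zic4*, r was 0.76 over the 40 libraries outside the *Pcgf1* line and 0.17 within it. The points share stages, lines and library series, and r is given as a description.

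**Figure D5:**
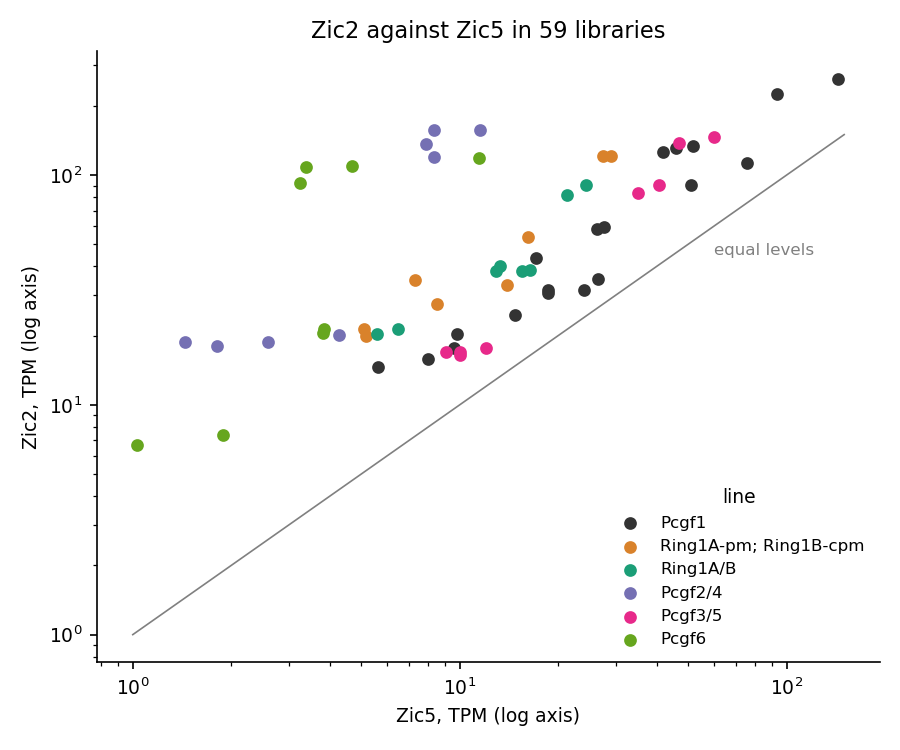
*Zic2* against *Zic5* in TPM on log axes, with 1 point for each of the 59 libraries coloured by line and a grey line where levels are equal. All points lie above the line, and libraries of the *Pcgf2/4* and *Pcgf6* lines lie farthest from it, with ratios of up to 18.8 and 31.8.

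The genes most like *Zic2* and *Zic5* were sought among 13400 genes over the 19 libraries of the *Pcgf1* line. For *Zic2* they were *Cd276* (r = 0.97), which encodes the immune checkpoint molecule B7-H3, *Setd7* (0.97), a lysine methyltransferase, *Epha8* (0.97), an ephrin receptor, *St6gal1* (0.97), a sialyltransferase, and *Scn2b* (0.97), a sodium channel subunit. Over the other 40 libraries their r with *Zic2* was 0.49, 0.64, 0.54, 0.73 and -0.01. For *Zic5* they were *Phc1* (0.98) and *Cbx6* (0.97), which encode PRC1 subunits, *Tgif2* (0.97), a homeodomain repressor, *Efr3b* (0.97), a plasma membrane protein, and *2610035F20Rik* (0.98). Over the other 40 libraries r was 0.70 for *Phc1*, -0.12 for *Cbx6*, 0.68 for *Tgif2*, 0.73 for *Efr3b* and 0.81 for *2610035F20Rik*. The 19 libraries share 2 stages and replicate series, and by Spearman's rho 0 of the 5 genes of *Zic2* and 2 of the 5 of *Zic5* were still among the first 5.

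For the lists that follow, the shares of all genes of the *Pcgf1* line called higher and lower were 11.5% and 13.4% in control EBs against ESCs, 1.08% and 0.874% in *Pcgf1*-KO against control EBs, and 8.13% and 10.2% in *Pcgf1*-KO EBs against ESCs. With the block they were 20.7% and 23.3% in the first of these and 4.83% and 5.58% in the second, with 16.8% higher in the third. In *Pcgf1*-KO ESCs 0.32% were called lower, and with the block 2.53% higher and 2.78% lower. The point-mutant line had 2.34% called higher in mutant ESCs, 3.76% higher and 0.764% lower in mutant EBs, and 2.73% higher in control EBs against ESCs, and the median of all genes was 0.12 in mutant ESCs and 0.10 in mutant EBs. These lists describe the pathway around the Zic genes and the stage of the cells.

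Genes of the GLI and Hedgehog pathway include the closest relatives of the Zic genes in protein fold and their signalling partners. From control ESCs to control EBs of the *Pcgf1* line 3 of 17 were called higher, 2 were called lower and 12 did not pass, with a median log2 difference of 0.66, where all genes had a median of -0.00. *Hhip*, a Hedgehog-binding inhibitor, rose by 1.85 ± 0.42 SE in log2 (limma adjusted p = 0.00302), *Ihh*, a ligand, rose by 1.82 ± 0.56 SE, and *Gli2*, a transcription factor of the pathway, changed by -1.95 ± 0.52 SE. With the replicate block, added after the values were seen, 9 were higher and 2 lower. The summed fibroblast markers were also lower in control EBs than in control ESCs, and their part in these changes was not tested. Between *Pcgf1*-KO and control EBs 0 of 17 were called by limma, with 0 at an unadjusted p under 0.05 (0 higher and 2 lower were called with the block), and the median was -0.18. In the point-mutant line *Dhh*, a ligand, was higher in mutant ESCs by 2.28 ± 0.41 SE and in mutant EBs by 3.01 ± 0.41 SE (adjusted p = 0.0383 and 0.0146). It was the 1 of 17 called in ESCs and 1 of 2 called in EBs, with medians of 0.61 and 0.56.

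Of 22 genes of the neural plate and neural crest, 8 rose and 4 fell from control ESCs to control EBs in the *Pcgf1* line, with a median of 0.53. *Pax6*, a regulator of eye and forebrain, rose by 3.80 ± 0.45 SE, *Sox3*, a neural and epiblast SOX gene, by 4.55 ± 0.56 SE and *Otx2*, a forebrain and epiblast regulator, by 2.18 ± 0.32 SE. Between *Pcgf1*-KO and control EBs 3 were called higher and 0 lower (4 and 2 with the block), with a median of -0.19. *Otx2* was not among the 3 called without the block and had the opposite sign, at -0.56 ± 0.31 SE (limma adjusted p = 0.531). In *Pcgf1*-KO ESCs 1 of 22, *Otx2*, was called, at -2.18 ± 0.32 SE (adjusted p = 0.00522), and with the block 4 were higher and 2 lower. In the point-mutant line 8 of 22 were higher and 0 lower in mutant ESCs (median 1.62), and 6 were higher and 1 lower in mutant EBs (median 1.60). *Otx1*, a forebrain regulator, was higher by 3.48 ± 0.39 SE and 2.94 ± 0.39 SE, whereas *Otx2* was the 1 called lower, at -2.04 ± 0.25 SE.

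Most formative epiblast genes rose from ESCs to EBs in the *Pcgf1* line and in controls of the point-mutant line, where 7 of 9 were called higher (median 3.01). In point-mutant cells 1 of 9 was called higher (median 0.82), beside 0.133% of genes called in either direction. In the *Pcgf1* line 8 of 9 were called higher in control EBs (median 4.33) and 8 of 9 in *Pcgf1*-KO EBs (median 4.16), and with the block 9 and 9. *Fgf5* rose by 7.58 ± 0.60 SE, *Pou3f1*, a POU transcription factor, by 6.12 ± 0.55 SE and *Dnmt3b*, a DNA methyltransferase, by 5.34 ± 0.53 SE in control cells. Between *Pcgf1*-KO and control EBs 0 of 9 were called by limma, with 2 at an unadjusted p under 0.05 (0 higher and 3 lower were called with the block, at a median of -0.56), and in mutant EBs of the point-mutant line 5 were lower and 1, *Sox3*, higher (median -1.80), with *Fgf5* at -3.36 ± 0.53 SE and *Pou3f1* at -1.89 ± 0.40 SE.

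Naive pluripotency genes went the other way. Of 11, 10 fell in control EBs (median -2.76) and 8 in *Pcgf1*-KO EBs (median -1.81), and 2 were higher in *Pcgf1*-KO than in control EBs (median 1.26), or 7 with the block. *Klf4* changed by -7.12 ± 0.62 SE in control EBs, *Tfcp2l1*, a naive transcription factor, by -5.08 ± 0.36 SE and *Tbx3*, a T-box factor, by -4.55 ± 0.42 SE. *Tfcp2l1* was higher in *Pcgf1*-KO than in control EBs by 1.52 ± 0.34 SE (limma adjusted p = 0.0237). In mutant EBs of the point-mutant line 3 of 11 were higher and 0 lower (median 0.67), with *Tbx3* at 2.05 ± 0.21 SE. Of the 4 core pluripotency genes, *Utf1* was the 1 called, higher in control EBs of the *Pcgf1* line by 2.10 ± 0.27 SE, and 0 of 4 were called by limma between mutant and control cells of either line without the block, with 0 at an unadjusted p under 0.05 in the *Pcgf1* line and 1 in ESCs and 2 in EBs of the point-mutant line. With the block 1 of 4 was called, higher, in *Pcgf1*-KO ESCs. *Otx2*, *Sox3* and *Foxd3* stand on both the neural and the formative list.

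Of the 13 fibroblast markers, 8 were called lower and 2 higher in control EBs against control ESCs of the *Pcgf1* line, 1 higher and 1 lower in *Pcgf1*-KO against control EBs (1 and 2 with the block), and 6 higher and 0 lower in mutant against control EBs of the point-mutant line. Of 9 primitive streak and mesoderm markers, 1 was higher and 0 lower in *Pcgf1*-KO EBs (2 and 0 with the block), and 2 were higher and 0 lower in mutant EBs of the point-mutant line. Of 6 trophoblast markers, 0 were called by limma in *Pcgf1*-KO EBs, with 2 at an unadjusted p under 0.05 (1 higher with the block), and 3 were higher in mutant EBs of the point-mutant line, and of 9 primitive endoderm markers 3 were higher there.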

How the data were processed

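RNA-seq of 59 libraries was used. The authors mapped reads to mm9 with STAR (version 2.5.2b), counted reads on exons and deposited TPM per gene symbol. How TPM was made from counts is not given in the sources used here, and depth is unknown. Libraries were grouped by their labels. The title was followed for the *Pcgf1*-KO EB library that is replicate 4 in its title but 5 in its characteristics. The condition in the table name was used for description only. No pair of libraries of 1711 held identical values.

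With limma (version 3.58.1, R 4.3.3), log2(TPM + 0.1) was fitted once per line over its 4 groups, with a variance trend, for genes above 0 TPM in at least 1 library. All 4 members passed this filter in the *Pcgf1* and point-mutant lines. P-values were adjusted by Benjamini-Hochberg over all genes tested in a comparison and called under 0.05. The method without a block was tested on simulated data with noise independent between libraries. Changes were put only into genes with a mean log2(TPM + 0.1) above 0. That test therefore does not bear on the block calls or on low genes. A count model was not used, since no counts were analysed here. The alternatives were a pseudocount of 1, a mean of at least 1 TPM, quantile normalization, median-of-ratios scaling, a fit of only the groups compared, leaving out each library and the replicate block.

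Same-numbered libraries of the *Pcgf1* line deviated together from their group means (r of 0.317 to 0.653 over 13400 genes for 18 pairs of libraries), so the number, taken from the titles, was treated as pairing them. The numbers nest in 3 library series named in the file headers, within which the deviations were hardly shared (9 correlations of -0.11 to 0.10), and the series was added as an alternative block. Intervals are 95% intervals of limma.

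Named genes are the members, the targeted genes, *Klf4* and *Fgf5*, at most 4 called genes of each list with the largest change, and the 5 genes most correlated (Pearson) with *Zic2* and *Zic5*, the members that average 1 TPM or more in the *Pcgf1* line. *Lum* was named after its values were seen. The members and lists were chosen with earlier results of these data known. Promoter sequences are from RefSeq (GRCm38.p6), and positions from GENCODE for mm9. Python (version 3.11.15) with pandas (version 2.3.3) was used for the rest.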

Additional observations from a re-analysis of the deposited data

Results flagged for a closer look

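*Zic4* in the control ESCs of the *Pcgf1* line was at 0.0198 TPM in replicate 4 and at 0 in the other 3 libraries, and in *Pcgf1*-KO EBs it was at 0.0836 TPM in replicate 1 and at 0 in the other 4, so that in both groups 1 library stood apart from the others. Among values that are otherwise all 0 any level above 0 stands apart, so this is a description only. Of 14 sets of a gene in a group of 4 or 5 libraries, the other 12 had no such library. The effect of *Pcgf1* loss on *Zic2* differed between EBs and ESCs when the replicate number was a block, with a log2 difference of -1.13 ± 0.12 SE between the 2 effects (limma adjusted p = 0.00103, over the 6 alternatives 0.000481 to 0.737, lower in 4 of 4 pairs). Some of these pairs share a library series and may not be separate. Without the block the difference was -1.05 and was not called.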

How the results depend on the processing

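With the replicate block, 2 members were called in *Pcgf1*-KO against control EBs and 1 for the interaction of the *Pcgf1* line, against 1 and 0 without it. The library series as a block, added after the data were seen, gave 2 and 1 as well. Neither block changed any other call of a member in the *Pcgf1* line. In the point-mutant line same-numbered libraries had r of 0.258 to 0.381 but share only a number, and the replicate block left 1, 1, 2, 0 and 0 members called in its 5 comparisons, as without it. With only the groups compared in the fit, 0 members were called in *Pcgf1*-KO against control EBs (1 at an unadjusted limma p under 0.05), 0 in mutant against control ESCs of the point-mutant line (3) and 0 in its mutant against control EBs (4). The cause was not tested, though such fits use fewer libraries. Pseudocount 1, the filter at a mean of 1 TPM (which removed *Zic1* and *Zic4* in the *Pcgf1* line and *Zic4* in the point-mutant line, where *Zic1* passed it through the mutant libraries, so that its call there is no separate support), median-of-ratios scaling and quantile normalization gave the main count of called members in all comparisons of both lines.

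Leaving out each library in turn gave 2 to 2 members called in the control stages of the *Pcgf1* line, 0 to 1 in *Pcgf1*-KO against control EBs and 1 to 2 in *Pcgf1*-KO EBs against ESCs. In the point-mutant line it gave 0 to 0 in control EBs against ESCs, 0 to 0 in mutant against control ESCs and 0 to 1 in mutant against control EBs, where a lone library is assumed to vary like the other groups. Over the other 4 lines it gave 13 to 15 of 80 tests, against 15. The *Zic5* interaction of the point-mutant line, -0.29 in log2, ranged from -0.86 to 0.28 and turned its sign without mutant EB 1 (0.28) or control ESC 2 (0.06). With depth unknown, no limit of detection could be set for *Zic1* and *Zic4*.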
